A study of Mus musculus with 16 samples.

Results

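Elf5, Cdx2, Gata2, Gata3, Plet1, Hand1, Tead4 and Tfap2a are 8 genes of the mouse trophoblast lineage, the cells of the early embryo that build the placenta. They were taken by name from the 35975 genes to which the transcripts of the deposited tables could be assigned, and all 8 were among the 18489 genes with enough counts to be tested. The level of a gene is given as CPM, its estimated counts scaled by the effective library size to counts per 1000000. Log2 fold changes carry their standard error (SE), and p-values are from edgeR's quasi-likelihood test, adjusted by the Benjamini-Hochberg method over all genes tested. A gene was called higher or lower at an adjusted p under 0.05.

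The libraries came from E14 (ES-E14TG2a), an established line of mouse embryonic stem cells, in a wild type form (WT) and a form that the labels write as TKO. Day 0 cells of both forms grew on fibronectin without serum, in a medium with LIF, vitamin C and inhibitors of MEK and Gsk3. Cells of days 2, 4 and 7 had been moved to Fgf2 and Activin A with 1% serum replacement, which drives embryonic stem cells toward epiblast-like cells, and were split once more on day 4. There were 2 libraries, biological replicates per the labels, of each genotype on each of the 4 days, 16 in all in 8 groups. The abbreviation TKO is not spelled out in the labels and was read here as loss of the DNA methyltransferases Dnmt1, Dnmt3a and Dnmt3b. No label says how the TKO cells were made or whether they are 1 clone. No group is a trophoblast sample, so that the levels below have no trophoblast reference.

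In the blastocyst, Tead4 acts with the Hippo pathway co-factor Yap1 in outer cells to switch on Cdx2 and Gata3, and Cdx2 keeps the trophectoderm apart from the inner cell mass. Elf5, Tfap2 and Gata factors then maintain trophoblast stem cells in a shared circuit, Plet1 is a surface protein of trophoblast progenitors, and Hand1 drives giant cell differentiation. DNA methylation is known to separate the lineages at Elf5, whose promoter is methylated in embryonic stem cells and unmethylated in trophoblast stem cells. None of the 8 genes is restricted to trophoblast: Cdx2 is also a factor of the posterior primitive streak and the gut, Hand1 of lateral mesoderm and heart, Gata2 of blood, Gata3 and Tfap2a of ectoderm derivatives.

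The promoters of the members differ in how many CpG sites, the sites at which DNA methyltransferases act, they hold. The stretches just upstream of the start sites are shown for Elf5 (the lineage gate named above) and for the 3 genes whose levels differed between genotypes on day 7 and whose promoter was at hand. They are RefSeq sequences on GRCm38.p6, written 5′ to 3′ on the strand of the gene, with every CpG in capitals. Elf5 lies on the plus strand of chromosome 2 and the stretch, chr2:103423818-103424061, precedes the downstream of its start sites. Those of Cdx2 (chr5:147307271-147307499) and Gata3 (chr2:9878601-9878850) read on the minus strand, and that of Plet1 (chr9:50494275-50494524) on the plus strand.
Elf5: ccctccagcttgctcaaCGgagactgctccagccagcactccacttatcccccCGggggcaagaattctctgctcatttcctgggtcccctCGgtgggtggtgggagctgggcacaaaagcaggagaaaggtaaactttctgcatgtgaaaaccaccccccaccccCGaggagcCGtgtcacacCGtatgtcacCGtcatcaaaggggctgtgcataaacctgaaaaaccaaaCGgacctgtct
Cdx2: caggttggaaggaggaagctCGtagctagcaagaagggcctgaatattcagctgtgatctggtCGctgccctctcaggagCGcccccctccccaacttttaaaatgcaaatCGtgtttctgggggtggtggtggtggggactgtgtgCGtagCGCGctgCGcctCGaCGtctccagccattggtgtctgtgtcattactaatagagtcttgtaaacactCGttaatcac
Gata3: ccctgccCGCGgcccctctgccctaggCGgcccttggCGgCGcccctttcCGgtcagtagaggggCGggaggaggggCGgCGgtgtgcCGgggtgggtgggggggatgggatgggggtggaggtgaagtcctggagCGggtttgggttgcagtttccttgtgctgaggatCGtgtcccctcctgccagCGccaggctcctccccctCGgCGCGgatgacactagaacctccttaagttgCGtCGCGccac
Plet1: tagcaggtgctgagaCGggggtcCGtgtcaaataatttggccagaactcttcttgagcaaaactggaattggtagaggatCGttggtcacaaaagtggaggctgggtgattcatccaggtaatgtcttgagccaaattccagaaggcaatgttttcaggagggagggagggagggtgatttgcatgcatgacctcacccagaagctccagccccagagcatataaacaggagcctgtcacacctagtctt

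Counted over windows of 300 bases, 250 before and 50 after the start, Gata3 held 22 CpG sites, Cdx2 18, Elf5 10 and Plet1 5, against a median of 7 over the 32851 windows of that table. The other Elf5 start site, with its window at chr2:103411848-103412147, held 3, and 76.7% of all windows hold at least as many. At least as many as Gata3 were found in 23.1% of all windows, as Cdx2 in 29.7%, as the Elf5 window with 10 in 43.5% and as Plet1 in 62.0%. Gata2, at 32, was the richest of the 6 members matched (9.52% of windows hold as many). Methylation was not measured in these libraries, so the counts describe the sequence only.

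The 16 libraries held between 33168178 and 58197630 estimated counts, and intervals and floors below cover counting error only. Dnmt1 ran from 36.2 to 55.9 CPM in the 8 TKO libraries and from 310.3 to 545 CPM in the 8 WT libraries. Dnmt3a was lower in the TKO on days 0, 2 and 7 and not called on day 4 (log2 -1.61 ± 0.56, adjusted p = 0.0553). Dnmt3b stood at 29.1 ± 0.260 CPM in the TKO and 28.3 ± 1.41 CPM in WT on day 0 (adjusted p = 0.941). It was lower in the TKO on later days, yet at 959 ± 50.9 CPM on day 2. Transcript levels thus set the genotypes apart at Dnmt1 on every day, but not at Dnmt3a and Dnmt3b on every day, and they do not show whether a protein is lost. Replicates agreed least on day 4 in the TKO, where 229 of the 11240 genes that reached 5 CPM were more than 2-fold apart, against 8 to 130 genes in the other groups. Dnmt3a was part of that gap, at 187 CPM in the first TKO library of day 4 and 33.9 CPM in the second. Of 20 listed genes of differentiated trophoblast, 14 had enough counts to be tested. The rest, the placental genes Tpbpa, Prl3d1, Prl3b1, Prl2c2, Ctsq and Hsd3b6, had at most 1 count in any library. They are named here because their counts were low. On day 7 the 20 genes together summed to between 1635 and 1720 CPM in WT and between 1997 and 2053 CPM in the TKO. Group means of Pou5f1, the pluripotency factor, stayed between 594 and 1558 CPM, and Fgf5, the epiblast marker, ran from at most 0.0577 CPM on day 0 to 84.0 CPM or more from day 2 on. In RNA from whole cultures, fewer cells of a type and less RNA per cell cannot be told apart.

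The 8 genes did not move together. On day 7, TKO cells had more Cdx2 and Plet1 and less Gata3 and Tead4 than WT cells, and the other 4 members passed no test. On day 4, Cdx2, Gata2, Plet1 and Hand1 were higher in the TKO. On day 2 Plet1 alone, and on day 0 Cdx2 alone, passed the test. Plet1 (days 2, 4 and 7) and Cdx2 (days 0, 4 and 7) were each called higher in the TKO on 3 of the 4 days, and Elf5 and Tfap2a passed the test on no day. Among all genes tested, 12.7% were called between genotypes on day 0, 13.4% on day 2, 28.9% on day 4 and 44.5% on day 7. By direction, 4.52% were called higher and 8.16% lower in the TKO on day 0, 7.91% and 5.52% on day 2, 17.8% and 11.1% on day 4, and 23.4% and 21.1% on day 7. The members' counts were 1 of 8 on days 0 and 2 and 4 of 8 on days 4 and 7, which is near the background on days 0, 2 and 7. That background moved when 1 library was left out: the genes called numbered 687 to 4294 in place of 2343 on day 0 and 579 to 2008 in place of 2482 on day 2. The lowest were without the second TKO library on both days, and day 0 reached its highest without the second WT library. The other counts off by over 1.5 times were 700 without the first TKO library on day 0, and 661 without the second WT and 955 without the first TKO library on day 2. The median log2 fold change of the 8 was 0.37 on day 0, 0.08 on day 2 and 0.23 on day 7, beside medians over all genes of -0.03, -0.01 and 0.00. On day 4 it was 1.87, or 1.54 with Cdx2 entered at its lower bound, beside 0.01 for all genes.

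**Figure D1:**
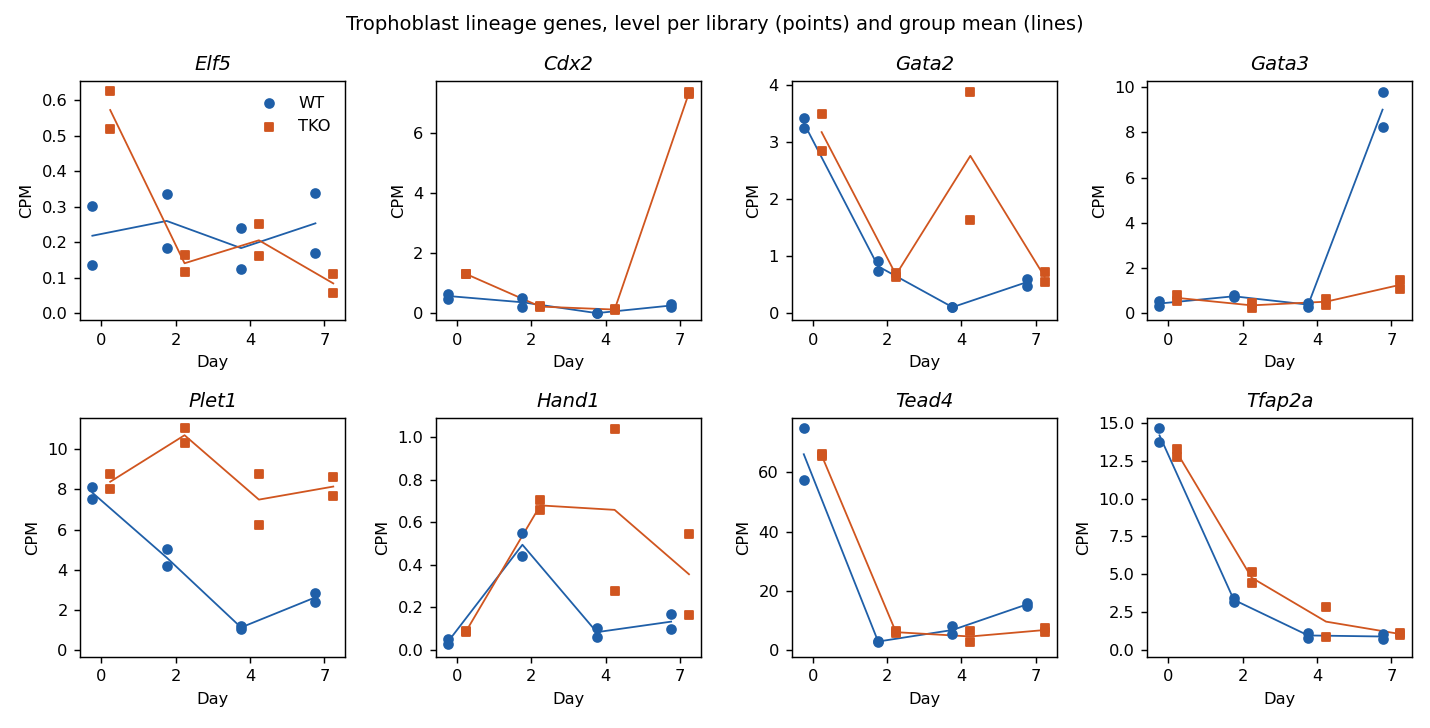
Level of each of the 8 genes in CPM on a linear axis of its own, by day (evenly spaced), 1 point per library, with lines through the group means of WT and TKO. Cdx2 and Gata3 part in opposite directions on day 7. The Plet1 points of the TKO stay between 6.23 and 11.1 CPM, while those of the WT fall to day 4 and stand higher again on day 7.

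**Figure D2:**
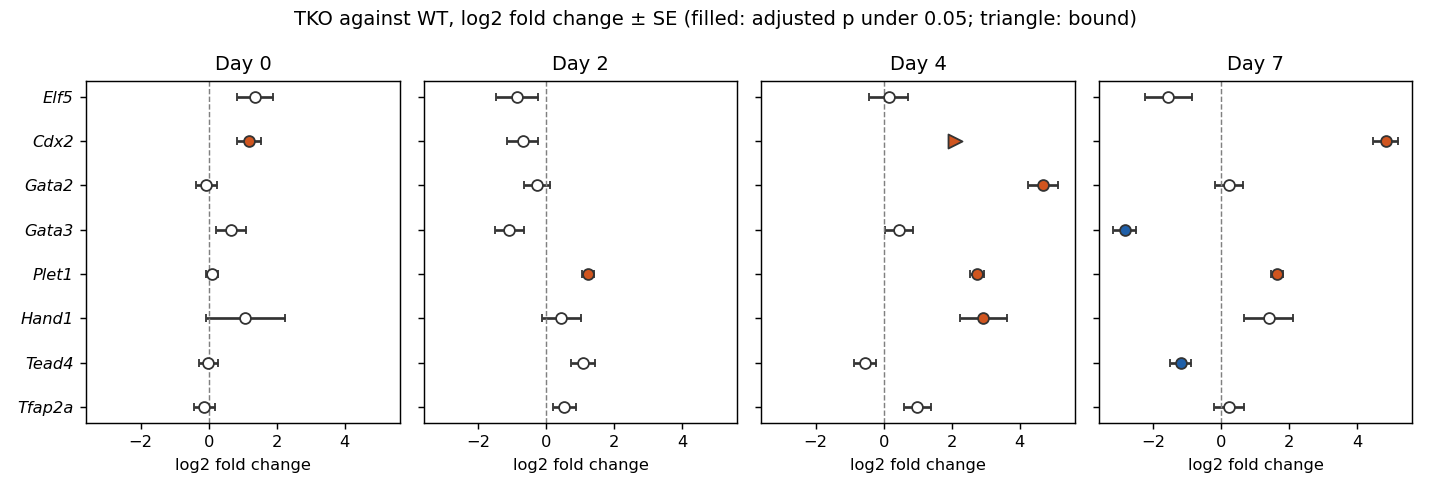
Log2 fold change of TKO against WT with its SE for each gene, 1 panel per day; filled points passed an adjusted p of 0.05. The triangle for Cdx2 on day 4 is a lower bound, since WT had 0 counts.

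Per transcript length, Tead4 led the 8 genes in embryonic stem cells. Plet1 led them on all later days in the TKO and on day 2 in WT, where Tead4 led on days 4 and 7. Tead4 stood at 37.5 ± 0.0550 TPM (SD, n = 2; TPM is the deposited measure scaled for length and depth) in TKO cells on day 0, which was 65.0% of the members' TPM. Plet1 followed at 8.09 ± 0.916 TPM and Tfap2a at 7.40 ± 0.0425 TPM, which did not differ beyond their spread. Gata2, Cdx2, Elf5, Gata3 and Hand1 came below, from 2.63 TPM down to 0.268 TPM. In WT on day 2, Plet1 gave 45.9% of the members' TPM and Tead4 17.2%. On day 7 the order in WT was Tead4 (51.2% of the members' TPM), Gata3 (25.9%) and Plet1 (15.1%), and in the TKO Plet1 (40.1%), Cdx2 (26.1%) and Tead4 (20.0%). Hand1 came last in WT on day 7, at 0.119 ± 0.0403 TPM, and next to it Cdx2 stood at 0.184 ± 0.0357 TPM.

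Tead4 is the transcription factor at the head of the trophectoderm programme. In WT it stood at 57.4 and 74.9 CPM on day 0, at 2.88 and 2.72 on day 2, at 5.45 and 7.96 on day 4, and at 15.8 and 14.9 on day 7. TKO libraries had 65.5 and 66.1 CPM on day 0, 6.31 and 5.63 on day 2, 6.52 and 2.51 on day 4, and 6.09 and 7.30 on day 7. Every library of a later day was below every library of day 0 in both genotypes, and the WT libraries of day 7 lay above those of day 2, while the TKO libraries of the 2 days overlapped. Against day 0, Tead4 was lower in WT by -4.56 ± 0.34 (log2, adjusted p = 2.71e-07) on day 2 and by -2.11 ± 0.29 (adjusted p = 4.89e-05) on day 7. In the TKO it was lower by -3.46 ± 0.32 (adjusted p = 1.81e-06) on day 2 and by -3.29 ± 0.32 (adjusted p = 1.82e-06) on day 7. The genotypes differed on day 7, when the TKO was 2.29-fold lower (log2 -1.20 ± 0.31, adjusted p = 0.00838), a call lost without the first TKO library of that day (log2 -1.11, adjusted p = 0.0560). On day 2 the TKO libraries lay above those of WT (log2 1.09 ± 0.35) without passing the test (adjusted p = 0.0614). Of 12 other settings, 3 called it. They were DESeq2 (adjusted p = 0.00527), a filter of at least 1 CPM in 2 libraries (0.0474) and the 4 libraries of that day alone (0.00136). On day 4 the call hung on 1 library: the difference was -0.55 ± 0.32 (adjusted p = 0.228), and -1.42 (adjusted p = 0.00126) without the first TKO library.

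Tead4 works through the Hippo pathway, and 15 other genes of that pathway were tested. Of these, 2 were higher and 4 lower in the TKO on day 7, beside 23.4% and 21.1% of all genes. These counts are near that background. The co-activator gene Wwtr1 rose from 40.0 ± 2.43 CPM in WT to 52.8 ± 1.67 CPM in the TKO (SD, n = 2; adjusted p = 0.000956). Vgll4, which competes with Yap1 for Tead proteins, was higher by 0.53 ± 0.11 (log2, adjusted p = 0.00141). Amot, a scaffold that holds Yap1 in the cytoplasm, stood at 394 ± 0.261 CPM in the TKO against 1372 ± 239.6 CPM in WT (log2 -1.80 ± 0.25, adjusted p = 0.000128). The Yap1 target Ccn1 was lower as well (log2 -0.92 ± 0.20, adjusted p = 0.00228). Other lower genes of the pathway were Amotl1 and Amotl2, and Tead1, Tead2, Tead3 and Yap1 were not called. On the earlier days 2 were higher and 1 lower on day 0, 3 higher and none lower on day 2, and 2 higher and 1 lower on day 4. The shares of all genes called on these days were 12.7%, 13.4% and 28.9%. The median over the 15 on day 7 was -0.13.

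Cdx2 is the homeobox factor that defines trophectoderm, and it changed more between genotypes than any other member on day 7. WT libraries held 0.487 and 0.653 CPM on day 0, 0.203 and 0.519 on day 2, 0 and 0 on day 4, and 0.290 and 0.217 on day 7. TKO libraries held 1.31 and 1.30 CPM on day 0, 0.246 and 0.188 on day 2, 0.146 and 0.0920 on day 4, and 7.30 and 7.36 on day 7. Both TKO libraries of day 7 were above all other 14 libraries, and those of day 0 came next. The day 7 difference was 28.6-fold (log2 4.84 ± 0.37, adjusted p = 5.59e-07), on 521 counts in the TKO and 21 in WT. Within the TKO, Cdx2 first fell from day 0 by 2.58 ± 0.40 on the log2 scale at day 2 (adjusted p = 0.000106) and by 3.41 ± 0.43 at day 4 (adjusted p = 1.38e-05), then stood 5.61-fold above day 0 on day 7 (adjusted p = 1.10e-05).

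On day 4, WT had 0 counts of Cdx2, which allows up to 0.0283 CPM, and the TKO had 11 counts, at least 4.24-fold higher (adjusted p = 0.00465). The call held without the first TKO library of day 4 (adjusted p = 0.0296). WT Cdx2 was then at least 20.2-fold lower than the 44 counts of day 0 (adjusted p = 6.27e-06). The day 0 difference was 2.28-fold (log2 1.19 ± 0.35, adjusted p = 0.0431), close to the threshold. It was lost without the first WT library of day 0 (adjusted p = 0.196), without the first (0.165) or the second TKO library (0.163), and with 3 other settings. In WT, Cdx2 was lower on day 7 than on day 0 by -1.16 ± 0.41 (log2, adjusted p = 0.0250). That call was lost without the second WT library of day 0 (log2 -0.90, adjusted p = 0.149), or without the first (log2 -1.35, adjusted p = 0.0549) or the second of day 7 (log2 -0.95, adjusted p = 0.144). The WT change at day 2 was -0.70 ± 0.39 (adjusted p = 0.140), and -1.48 (adjusted p = 0.0112) without the second WT library of that day.

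Because Cdx2 also belongs to the posterior primitive streak, markers of streak and mesoderm are given beside it. Of 13 tested, 10 were higher and 2 lower in the TKO on day 7, beside 23.4% and 21.1% of all genes. Their median log2 fold change was 2.99. Mixl1, a streak homeobox gene, rose from 6.86 ± 0.977 CPM in WT to 80.3 ± 7.35 CPM (log2 3.55 ± 0.22, adjusted p = 5.19e-08). Tbx6, a factor of paraxial mesoderm, rose from 0.507 ± 0.102 CPM to 9.80 ± 1.22 CPM (log2 4.27 ± 0.31, adjusted p = 1.86e-07). Tbx3 and Msx2 were the lower pair, at log2 -2.53 ± 0.52 (adjusted p = 0.00213) and -1.32 ± 0.34 (adjusted p = 0.00665). The 14 markers summed to between 753 and 781 CPM in the TKO libraries of day 7 and to between 91.0 and 110.1 CPM in WT. On day 4, when Cdx2 was low in both genotypes, these sums ran from 24.1 to 32.8 CPM in the TKO and from 19.3 to 51.3 CPM in WT. On that day 1 marker was higher (Kdr) and 1 lower (Fgf8), beside 17.8% and 11.1% of all genes. The part of streak cells in the Cdx2 difference was not tested.

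Among relatives of the members, the second Cdx gene Cdx1 had 77 counts in the TKO and 0 in WT on day 7, at least 29.9-fold higher (adjusted p = 0.000653). Hand2, a relative of Hand1, had 7 counts against 0 (at least 2.72-fold, adjusted p = 0.0159). Elf3 (log2 -0.72 ± 0.10, adjusted p = 8.61e-05) and Gata4 (log2 -2.04 ± 0.39, adjusted p = 0.000993) were lower in the TKO. Of 13 relatives tested, 2 were higher and 3 lower on day 7, beside 23.4% and 21.1% of all genes, which is near the background. On day 4, 3 were higher, led by the endoderm factor Gata6 (log2 4.79 ± 0.60, adjusted p = 8.61e-05) and by Cdx4 (log2 2.26 ± 0.60, adjusted p = 0.0122), and none lower. On day 0 none of the 13 was called, and on day 2 Hand2 was higher and Elf3 lower. The shares of all genes called were 12.7% on day 0, 13.4% on day 2 and 28.9% on day 4.

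Gata3, a zinc finger factor that acts beside Cdx2 downstream of Tead4, behaved in the opposite way to Cdx2 on day 7. In WT it read 0.297 and 0.553 CPM on day 0, 0.792 and 0.700 on day 2, 0.293 and 0.460 on day 4, and 9.80 and 8.22 on day 7. TKO values were 0.541 and 0.808 CPM on day 0, 0.219 and 0.469 on day 2, 0.646 and 0.368 on day 4, and 1.47 and 1.05 on day 7. The WT libraries of day 7 stood apart from the other 14, of which none exceeded 1.47 CPM. In WT the day 7 level was 20.9-fold that of day 0 (log2 4.39 ± 0.38, adjusted p = 2.06e-07). In the TKO the same change was 0.89 ± 0.39 (log2, adjusted p = 0.0542). It passed the threshold without a filter on low counts (log2 0.88, adjusted p = 0.0447) and with the effective-length offset (log2 1.37, adjusted p = 0.00950). On day 7 the TKO was 7.17-fold lower than WT (log2 -2.84 ± 0.34, adjusted p = 1.80e-05), on 89 counts against 747. The TKO change at day 2 was -0.94 ± 0.44 (adjusted p = 0.0861), and -1.61 (adjusted p = 0.0374) without the second TKO library of that day. Between genotypes no other day gave a call, with adjusted p-values of 0.359, 0.107 and 0.459 on days 0, 2 and 4.

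Markers of endoderm, in which Gata factors also act, moved both ways on day 7: of 9 tested, 3 were higher and 3 lower in the TKO. Over all genes 23.4% were higher and 21.1% lower on that day. Sox17 (log2 -2.89 ± 0.31, adjusted p = 6.65e-06) and Hnf4a (log2 -4.13 ± 0.55, adjusted p = 4.42e-05) were lower, as was Gata4. The higher ones were Dab2, Foxa2 and Afp, of which Afp had 94 counts in the TKO and 0 in WT (at least 36.5-fold). The 9 markers summed to between 263 and 353 CPM in WT and between 346 and 387 CPM in the TKO. The list of surface ectoderm and amnion markers, 10 tested, had 4 genes higher, led by Wnt6 (log2 6.21 ± 0.47, adjusted p = 2.53e-07) and Krt5 (log2 3.90 ± 0.66, adjusted p = 0.000341). It had 3 lower, Grhl3 (log2 -1.87 ± 0.17, adjusted p = 1.69e-06) and Grhl2 (log2 -0.73 ± 0.11, adjusted p = 0.000169) among them. Their part in the Gata3 difference was not tested.

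Gata2, the second Gata factor of trophoblast stem cells and giant cells, parted between genotypes on day 4. WT libraries had 3.24 and 3.42 CPM on day 0, 0.731 and 0.908 on day 2, 0.103 and 0.105 on day 4, and 0.603 and 0.482 on day 7. TKO libraries had 2.85 and 3.49 CPM on day 0, 0.711 and 0.633 on day 2, 3.88 and 1.63 on day 4, and 0.719 and 0.551 on day 7. Both TKO libraries of day 4 exceeded both of WT, though they differed from each other. The difference was 25.9-fold (log2 4.69 ± 0.44, adjusted p = 6.25e-06), on 257 counts against 11. Without the first TKO library it was 3.93 on the log2 scale, still called. From day 0 to day 4, Gata2 was lower in WT by -4.96 ± 0.44 (log2, adjusted p = 2.89e-07), while the TKO change was -0.20 ± 0.31 (adjusted p = 0.607) and became -0.97 (adjusted p = 0.00798) without the first TKO library of day 4. On days 2 and 7 Gata2 was lower than on day 0 in both genotypes, by log2 values from -2.03 to -2.61. The day 7 difference between genotypes was 0.22 ± 0.41 (adjusted p = 0.693), but 1.21 (adjusted p = 0.0103) with the effective-length offset, which corrects for shifts among transcripts of different length. Gata2-204, a transcript with a retained intron, gave 22.0% of the 45 Gata2 counts of the TKO on day 7 and 11.9% of the 45 of WT. These shares are only 9.92 and 5.33 estimated counts. Gata2-203, a protein-coding transcript, had 4 counts in the TKO and 0 in WT on that day. The part of either transcript in the offset result was not tested.

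Endoderm markers stood higher in the TKO on day 4, when Gata2 did: 6 of 9 were called higher and 1, Foxa2, lower. Over all genes 17.8% were higher and 11.1% lower on that day. Gata6 (log2 4.79 ± 0.60) was the first of these and Sox17 the second by adjusted p (log2 4.55 ± 0.61, adjusted p = 0.000120). The summed level was 46.4 CPM in the first TKO library, which also had the higher Gata2 level, and 15.2 CPM in the second. In WT it lay between 15.0 and 22.6 CPM, so that the sums overlapped. Their part in the Gata2 difference was not tested.

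Elf5, the methylation-gated Ets factor, was close to the limit of detection in every group. Libraries of WT read 0.135 and 0.301 CPM on day 0, 0.183 and 0.337 on day 2, 0.241 and 0.125 on day 4, and 0.169 and 0.338 on day 7. Libraries of the TKO read 0.626 and 0.520 CPM on day 0, 0.164 and 0.117 on day 2, 0.250 and 0.161 on day 4, and 0.0575 and 0.110 on day 7. The most counts in a library were 22, in a TKO library of day 0, and the fewest were 2, in a TKO library of day 7. The TKO lay above WT on day 0 and below it on days 2 and 7 without overlap, yet no day passed the test (adjusted p = 0.111, 0.374, 0.881 and 0.0806 in order of day). Within the TKO, Elf5 was lower than on day 0 by -2.02 ± 0.57 on day 2 (log2, adjusted p = 0.00761), -1.46 ± 0.52 on day 4 (adjusted p = 0.0257) and -2.72 ± 0.63 on day 7 (adjusted p = 0.00160). The day 2 call was lost without the second TKO library of day 2 (adjusted p = 0.0691). That of day 4 was lost with DESeq2 (adjusted p = 0.0810), without the first (0.114) or second TKO library of day 0 (0.0553), and without the second of day 4 (0.133). Over the 16 libraries, 73.4% of the Elf5 counts fell on Elf5-204, a transcript with a retained intron, and 14.9% on protein-coding transcripts, which summed to 23.1 estimated counts.

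Tfap2a encodes AP-2 alpha, a factor of trophoblast and surface ectoderm, and it fell from day 0 in both genotypes. It read 14.7 and 13.7 CPM in WT on day 0, then 3.19 and 3.42 on day 2, 0.793 and 1.11 on day 4, and 1.04 and 0.723 on day 7. It read 12.8 and 13.2 CPM in the TKO on day 0, then 4.40 and 5.14 on day 2, 2.85 and 0.874 on day 4, and 1.09 and 0.992 on day 7. All later libraries were below all of day 0, and by day 7 the decline was 16.1-fold in WT (adjusted p = 7.65e-07) and 12.4-fold in the TKO (adjusted p = 1.85e-06). No day gave a difference between genotypes past the threshold. On day 2 it was 0.53 ± 0.34 (log2, adjusted p = 0.325), called with the 4 libraries of that day alone (adjusted p = 0.0325). The nearest was day 4 (log2 0.99 ± 0.39, adjusted p = 0.0739). There DESeq2 made a call (adjusted p = 0.0435), as did the fit without the second TKO library (log2 1.59, adjusted p = 0.000279), while the fit without the first gave -0.11 (adjusted p = 0.836).

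Plet1, the surface protein of trophoblast progenitors, fell in WT to day 4 and stood higher again on day 7, still below day 0. In the TKO no change from day 0 passed the test. WT libraries had 8.14 and 7.54 CPM on day 0, 4.16 and 5.03 on day 2, 1.21 and 1.02 on day 4, and 2.39 and 2.85 on day 7. TKO libraries had 8.77 and 8.0 CPM on day 0, 10.3 and 11.1 on day 2, 8.75 and 6.23 on day 4, and 8.62 and 7.66 on day 7. The genotypes overlapped on day 0, and on each later day both TKO libraries were above both WT libraries. The TKO was 2.33-fold higher on day 2 (log2 1.22 ± 0.18, adjusted p = 0.000918), 6.68-fold on day 4 (log2 2.74 ± 0.20, adjusted p = 6.76e-07; log2 2.47 without the first TKO library) and 3.11-fold on day 7 (log2 1.64 ± 0.19, adjusted p = 1.12e-05). WT was lower than on day 0 by -0.77 ± 0.18 on day 2 (log2, adjusted p = 0.00181), -2.80 ± 0.20 on day 4 (adjusted p = 2.62e-08) and -1.58 ± 0.19 on day 7 (adjusted p = 4.15e-06). In the TKO these changes were 0.35 ± 0.17, -0.16 ± 0.17 and -0.04 ± 0.17, none past the threshold (adjusted p = 0.0968, 0.439 and 0.845). An antisense gene, Plet1os, overlaps Plet1 and was not analysed here; whether counting used the strand is not given in the sources used here.

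Hand1, a factor of giant cells and of lateral mesoderm, was scarce throughout. Its WT values were 0.0270 and 0.0502 CPM on day 0, 0.548 and 0.441 on day 2, 0.103 and 0.0627 on day 4, and 0.169 and 0.0965 on day 7. Its TKO values were 0.0854 and 0.0866 CPM on day 0, 0.656 and 0.704 on day 2, 1.04 and 0.276 on day 4, and 0.546 and 0.165 on day 7. Day 2 libraries were above those of day 0 in both genotypes, and the largest gap between replicates was in the TKO on day 4. In WT, 3 counts on day 0 became 44 on day 2, a ratio of 12.8 (95% exact interval 4.11 to 64.6, counting error only; adjusted p = 0.00257). In the TKO the day 2 rise was 2.94 ± 0.75 (log2, adjusted p = 0.00405). On day 4 the TKO was 7.63-fold above WT (log2 2.93 ± 0.68, adjusted p = 0.00605). That call was lost without the first TKO library (log2 1.67, adjusted p = 0.124) and with the 4 libraries of that day alone (adjusted p = 0.0595). Against day 0 the TKO was higher by 2.91 ± 0.74 on day 4 (adjusted p = 0.00371; log2 1.64, adjusted p = 0.0898 without the first library of day 4) and by 2.00 ± 0.81 on day 7 (adjusted p = 0.0416). The day 7 call was lost in 6 of 10 other settings, among them the fit without the first TKO library of day 7 (log2 0.90, adjusted p = 0.453) and those without either TKO library of day 0 (0.135 and 0.131).

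**Figure D3:**
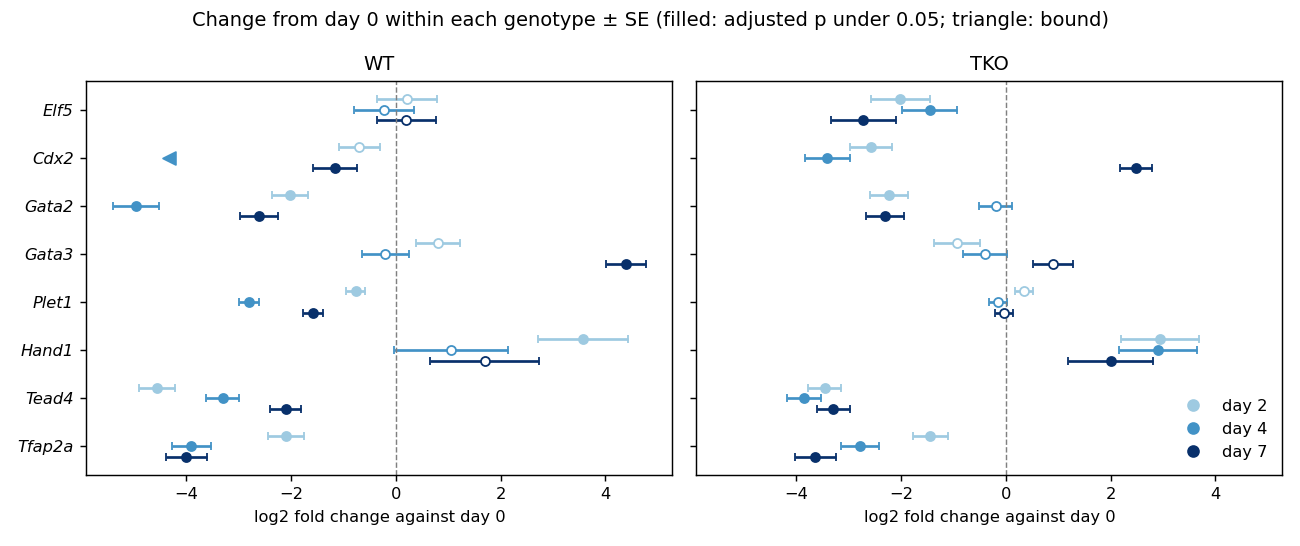
Log2 fold change of days 2, 4 and 7 against day 0 with its SE, WT in the left panel and TKO in the right; filled points passed an adjusted p of 0.05. The triangle for Cdx2 is a bound against 0 counts, Plet1 lies near 0 in the TKO and below it in WT, and Gata3 in WT and Cdx2 in the TKO stand to the right on day 7.

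Differentiation moved most of these genes in both genotypes, as it did most genes. In WT, 5 members were called on day 2, 5 on day 4 and 6 on day 7, where 61.5%, 63.2% and 66.2% of all genes were. In the TKO, 6, 5 and 6 members were called, where 57.0%, 63.0% and 67.8% of all genes were. These shares are near the background. Tead4 and Tfap2a were lower on every later day in both genotypes. The comparisons share their day 0 libraries.

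The change of the genotype difference from day 0 was tested as an interaction. It was called for Plet1 on days 2, 4 and 7, for Cdx2 on days 4 and 7, for Gata2 on day 4, and for Gata3 and Elf5 on day 7. That is 1, 3 and 4 of 8 members on days 2, 4 and 7, where 7.56%, 16.3% and 27.1% of all genes were called. For Plet1 on day 7 it was 1.54 ± 0.25 (log2, adjusted p = 0.000532) and for Gata3 -3.49 ± 0.55 (adjusted p = 0.000355). For Cdx2 it was 3.65 ± 0.51 (adjusted p = 0.000207). Neither Tead4, nor Hand1, nor Tfap2a passed on any day. Tead4 on day 7 was the closest (-1.19 ± 0.42, adjusted p = 0.0549) and was called by DESeq2 (adjusted p = 0.0215), limma-voom (0.0205) and the stricter filter of 1 CPM in 2 libraries (0.0460). On day 4 the TKO libraries decided: Tead4 gave -1.42 (adjusted p = 0.00527) without the first and Tfap2a 1.70 (adjusted p = 0.00110) without the second.

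Other genes of trophoblast stem cells moved in both directions. Of 15 tested on day 7, 3 were higher and 7 lower in the TKO, beside 23.4% and 21.1% of all genes. Their median log2 fold change was -0.08. Bmp4, the ligand that supports trophoblast and posterior fates, rose from 3.81 ± 0.412 CPM to 12.9 ± 1.09 CPM (log2 1.76 ± 0.15, adjusted p = 8.72e-07). Cdh3, the placental cadherin, was higher as well (log2 0.78 ± 0.12, adjusted p = 0.000116). Eomes, which trophoblast stem cells share with the streak, was the third, at 150.2 ± 1.85 CPM against 75.9 ± 12.4 CPM (log2 0.98 ± 0.31, adjusted p = 0.0235). Sox2, shared by trophoblast stem cells and epiblast, was the lowest by adjusted p (log2 -1.81 ± 0.21, adjusted p = 2.11e-05), and Sall4 followed (log2 -0.47 ± 0.08, adjusted p = 0.000233). On day 4, 5 were higher, with Sox21 first (log2 4.00 ± 0.33, adjusted p = 1.89e-06), and 3 lower. Days 0 and 2 had 1 higher and 1 lower, and 3 higher and 1 lower. Over all genes, 17.8% were higher and 11.1% lower on day 4, 4.52% and 8.16% on day 0, and 7.91% and 5.52% on day 2.

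Of the 20 genes of differentiated trophoblast, 14 were tested. On day 7, 5 of these were higher and 6 lower in the TKO, beside 23.4% and 21.1% of all genes. Their median was 0.30. The X-linked homeobox genes Rhox6 and Rhox9, whose reads may be shared between near copies, had 39 and 16 counts in the TKO and 0 in WT, at least 15.2-fold and 6.22-fold higher. The keratin gene Krt18 was 81.8 ± 12.1 CPM in the TKO and 315 ± 2.73 CPM in WT (log2 -1.95 ± 0.13, adjusted p = 1.05e-07). Ovol2, a zinc finger repressor of epithelial cells, was also lower (log2 -2.40 ± 0.28, adjusted p = 1.42e-05). Gcm1, the syncytiotrophoblast factor, and Plac1 and Peg10 completed the higher set, which was chosen for naming after its values were seen. On day 4, 5 were higher and 2, Krt18 and Krt8, lower. Day 0 had 2 higher and 3 lower, and day 2 had 1 higher and 2 lower. The shares of all genes called higher and lower were 17.8% and 11.1% on day 4, 4.52% and 8.16% on day 0, and 7.91% and 5.52% on day 2.

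**Figure D4:**
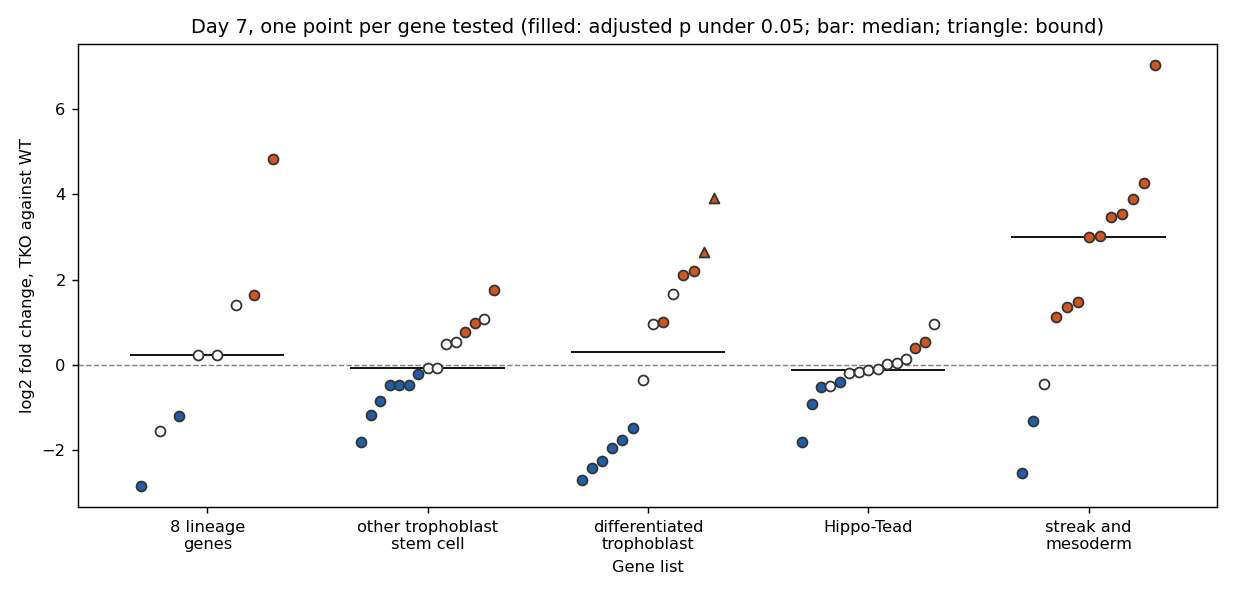
Log2 fold change of TKO against WT on day 7 for every tested gene of 5 lists, 1 point per gene; filled points passed an adjusted p of 0.05, bars are list medians and triangles are lower bounds against 0 counts. The 3 trophoblast lists and the Hippo list lie on both sides of 0, and 10 of 13 streak and mesoderm markers are called higher.

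For comparison with genes known to be silenced by methylation, 10 germline genes were followed. On day 7, 9 of 10 were higher in the TKO, Asz1 at 3570 counts against 0 in WT. On day 4, 8 were higher and none lower, on day 2, 2 were higher and 2 lower, and on day 0, 3 were lower and none higher. Over all genes, 23.4% were higher and 21.1% lower on day 7, and 17.8% and 11.1% on day 4. On day 2 these shares were 7.91% and 5.52%, and on day 0 they were 4.52% and 8.16%. The list was picked for its known regulation and its direction is no independent evidence.

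The genes whose group means followed each member most closely were ranked by Pearson's r of log2 CPM over the 8 groups, among 14864 protein-coding genes. The r values describe 8 means that share libraries, and no p is given. Nearest to Cdx2 were Adra2a (r = 0.98), Cfap52 (0.98) and Eci3 (0.98), and nearest to Gata3 were Fgf16 (0.99), Ermn (0.98) and Spon2 (0.98). Plet1 was followed most closely by Rnf32 (0.96) and Lzts3 (0.95), Gata2 by Tubb2a (0.95), Pex16 (0.95) and Sdk2 (0.95). For Tead4 they were Mpzl2 (1.00), Sfxn3 (0.99) and Ahnak2 (0.99), and for Tfap2a Hoxc13, Uhrf1 and Snx20 (0.99 each). Adra2a, as Cdx2 did, stood highest in the TKO on day 7, at 2.47 CPM against 0.253 CPM in WT. Elf5 and Hand1 reached no mean of 1 CPM and were not ranked.

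At the level of transcripts, most members were read from 1 main form. Gata3-201 held 98.6% of the Gata3 counts, Plet1-201 98.1% of those of Plet1 and Hand1-201 92.6% of those of Hand1, and Cdx2 has a single transcript in the tables. Tead4-201 held 80.7% and Tead4-203 19.0% of the Tead4 counts. Tead4-201 gave 80.9% in WT and 80.8% in the TKO on day 7. Tfap2a was split among several, with 54.0% in Tfap2a-202 and 25.4% in Tfap2a-201. On GRCm38, Cdx2 (ENSMUSG00000029646.3) lies on chromosome 5 from 147300805 to 147307270, Gata3 (ENSMUSG00000015619.10) on chromosome 2 from 9857078 to 9890034, and Elf5 (ENSMUSG00000027186.14) on chromosome 2 from 103411688 to 103450989. Plet1 (ENSMUSG00000032068.14) lies on chromosome 9 from 50494525 to 50505482, and Tead4 (ENSMUSG00000030353.15) on chromosome 6 from 128224288 to 128300823. Gata2 (ENSMUSG00000015053.14) is on chromosome 6 from 88193891 to 88207032, Hand1 (ENSMUSG00000037335.13) on chromosome 11 from 57828705 to 57832818, and Tfap2a (ENSMUSG00000021359.16) on chromosome 13 from 40715302 to 40738376.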

How the data were processed

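Bulk RNA was sequenced from 16 libraries, 2 per group, after a stranded messenger RNA preparation, per the labels' protocols. The deposited tables give, per transcript, estimated counts, not normalised, per the file headers. They also give TPM, scaled for depth and length by the authors' tool, per the file headers, and an effective length in bases. The tool was kallisto, version not stated, and the builds named are GRCm38 and mm10, per the submitters' processing notes.

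Of 119414 transcripts, 116728 (97.8%) matched the GENCODE vM21 annotation of GRCm38 by identifier with the version removed. Estimated counts were summed per gene, rounded, and tested on all 16 libraries together (edgeR 4.0.16, R 4.3.3). The fit used a filter by group (filterByExpr), TMM factors, robust quasi-likelihood dispersions and 1 mean per group, which left 8 residual degrees of freedom. The common biological coefficient of variation was 0.111. Each SE was derived by dividing the log2 fold change by the root of its F value. There were 13 comparisons: 4 between genotypes, 6 between a later day and day 0 in 1 genotype, and 3 interactions. Where a group had 0 counts, the fold is a bound computed with 3 counts for that group; where it had 1 to 3, the ratio carries an exact (binomial) 95% interval. The fit was tested on simulated data. Depth ran from 33168178 to 58197630 estimated counts per library.

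Alternatives were DESeq2 1.42.0, its size factors, limma 3.58.1 (voom), no filter, at least 1 CPM in 2 libraries, a replicate block, an effective-length offset, the 4 libraries compared alone, and leaving out each library. Named are the 8 genes, Dnmt1, Dnmt3a and Dnmt3b, Asz1, Pou5f1, Fgf5, up to 2 called genes per direction of each other list by adjusted p, and the 3 genes most like each member (1 of them is not reported here); other names were chosen after their values were seen. The members and lists were chosen with earlier results of these data known. The members' levels and tests use gene sums; TPM was used only to order genes. Promoters of Hand1 and Tead4 were not analysed here. The labels call the libraries biological replicates without saying from which cultures they came, so p-values measure the spread between these libraries.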

Additional observations from a re-analysis of the deposited data

Results flagged for a closer look

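The genotype difference of 5 members changed from day 0 to a later day by the interaction test of edgeR. All 16 libraries in 8 groups were fitted together, with n = 2 libraries per group. For Plet1 the change was 1.12 on the log2 scale on day 2 (adjusted p = 0.0145), 2.64 on day 4 (adjusted p = 1.76e-05) and 1.54 on day 7 (adjusted p = 0.000532), each toward a higher level in the TKO. The day 2 call was lost without the first WT library of day 2 (adjusted p = 0.0664), the second TKO library of day 0 (0.0729) or the second TKO library of day 2 (0.0655). For Gata2 it was 4.76 on day 4 (adjusted p = 6.54e-05), and 3.99 without the first TKO library of that day. For Cdx2 it was 3.65 on day 7 (adjusted p = 0.000207). For Cdx2 on day 4 the fitted change was 4.17 (adjusted p = 0.0450), a value that rests on 0 WT counts; against the floor of 3 counts the change was at least 1.86-fold, and the call was lost in 11 of 15 other settings, with adjusted p-values from 0.0423 to 0.162. For Gata3 it was -3.49 on day 7 (adjusted p = 0.000355), toward a lower level in the TKO. For Elf5 it was -2.92 on day 7 (adjusted p = 0.0225), on at most 22 counts a library, and the call was lost in 6 of 14 other settings (adjusted p from 0.0131 to 0.116), among them those without the first WT or first TKO library of day 0, the second WT library or the first TKO library of day 7. With 2 libraries a group, single libraries were not tested for standing apart.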

How the results depend on the processing

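Over 1241 single-gene values recomputed for the members under other settings, 1178 kept their direction or stayed uncalled on the same side of the threshold, 44 lost their call, 19 gained one and 0 reversed a call. Counts of members called between genotypes moved as follows. On day 0 (1 member) the replicate block, the effective-length offset and the 4 libraries alone each gave 0. On day 2 (1 member) DESeq2 and the stricter filter each gave 2 and the 4 libraries alone 3. On day 4 (4 members) the 4 libraries alone gave 2, the stricter filter 3 and DESeq2 5. With the 4 libraries alone Hand1 lost its call, while Cdx2 had too few counts to be tested. The stricter filter left Hand1 untested, so that these drops are not all lost calls. Which members made up the day 4 count also depended on the first TKO library of that day. Without it, Hand1 moved from log2 2.93 to 1.67 and Tead4 from -0.55 to -1.42. On day 7 (4 members) the effective-length offset gave 5, and no other such setting moved the count. For day 4 against day 0 in the TKO (5 members) the stricter filter gave 3, because it left Elf5 and Hand1 untested. Leaving out 1 library gave 0 to 1 members on day 0, 1 to 1 on day 2, 4 to 5 on day 4 and 3 to 4 on day 7; the library left alone in its group was assumed to vary like the other groups. The replicate numbers pair no cultures by the labels, and same-numbered libraries deviated together in 1 of 28 pairs of groups (r over 0.1; range -0.55 to 0.12). With the replicate block, Cdx2 lost its calls on day 0 (adjusted p = 0.0595) and in the day 4 interaction (adjusted p = 0.0586), and no other member changed its call. Genes called on day 0 numbered 2343, and 359 with the 4 libraries alone; on day 4 they numbered 5342, and 2821. Counts of Elf5 and Hand1 stayed at or below 50 in a library, which limits what can be seen for these 2 genes.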
